A study of Homo sapiens with 4 samples.

Results

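Alternative splicing of SYTL2, CADPS, SNAP25 and SCN2A, 4 genes that serve vesicle secretion and membrane excitability in neurons, was read in U87MG cells, a human glioblastoma cell line. All deposited splicing events assigned to these genes were taken, 65 of 121269, with 19 in SYTL2, 18 in CADPS, 23 in SNAP25 and 5 in SCN2A. The genes were chosen because exons of theirs differed between the same libraries, so the differences between conditions are given as a description. Calls of these events in the fit over all genes are given only as counts beside the share over all genes, and support nothing. Cells were transfected, by lipofection and at 2.5 µM, with RBFOXi, a decoy RNA oligonucleotide carrying repeats of the RBFOX binding motif, or with SCRM, a scrambled oligonucleotide. Each condition had 2 libraries, described in the study's methods as independent biological replicates. The oligonucleotide of RBFOXi replicate 1 carried the dye Cy5 and that of replicate 2 did not, so dye and replicate cannot be told apart.

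RBFOX1 and RBFOX2 are RNA-binding proteins that recognize UGCAUG in pre-mRNA. As a rule, binding in the intron downstream of an alternative exon favours its inclusion and binding upstream favours its skipping. Each of the genes described here belongs to neurons or other secretory cells. SYTL2 (Slp2) tethers vesicles that carry the GTPase RAB27 to the plasma membrane, CADPS (CAPS1) primes dense-core vesicles for release, SNAP25 is a SNARE protein of the fusion machinery, and SCN2A encodes the pore-forming subunit of the sodium channel NaV1.2. SNAP25 and SCN2A each hold a pair of alike exons of which a transcript carries 1, and in both genes the choice shifts as the brain matures. In SNAP25 exon 5a gives way to exon 5b, and in SCN2A the neonatal exon gives way to the adult exon.

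Sequences are given 5′ to 3′ on the strand of the gene, from GRCh37 (hg19). The SNAP25 pair is shown in full because the results set its members against each other. Capitals mark the bases that differ within the pair, 31 of 118, while 87 were identical (73.7%). The SNAP25 exons lie on the plus strand at chr20:10273530-10273647 (5a) and chr20:10273809-10273926 (5b), 161 nt apart. The SCN2A exons, on chromosome 2, are 92 nt each with an intron of 95 nt between them. Neither length is a multiple of 3, and within a pair the lengths are equal.
SNAP25 exon 5a: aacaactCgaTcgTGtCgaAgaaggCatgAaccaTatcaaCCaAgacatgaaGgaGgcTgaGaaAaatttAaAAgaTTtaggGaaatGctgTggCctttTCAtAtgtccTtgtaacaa
SNAP25 exon 5b: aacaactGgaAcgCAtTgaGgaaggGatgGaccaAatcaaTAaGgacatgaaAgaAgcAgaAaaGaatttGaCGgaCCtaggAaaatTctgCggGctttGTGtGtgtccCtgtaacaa

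The exons of SYTL2 and CADPS are cassette exons whose lengths, 120 and 159 nt, are multiples of 3. SYTL2 exon 13, numbered in the canonical transcript of the annotation, lies on the minus strand at chr11:85422156-85422275 and is coding in 12 of the 14 annotated transcripts that hold it. It is shown because it had the largest delta PSI of the events in the fit. The CADPS exon lies on chromosome 3, between canonical exons 13 and 14, and is coding in both of the annotated transcripts that hold it.
SYTL2 exon 13: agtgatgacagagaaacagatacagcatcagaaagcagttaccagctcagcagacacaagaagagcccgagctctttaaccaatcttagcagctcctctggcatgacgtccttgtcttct

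Inclusion was measured as PSI, the proportion spliced in, which is the length-corrected share of reads from the form with the exon. In an event of mutually exclusive exons, PSI is the share of the exon that comes first in the transcript. Delta PSI is the mean of the RBFOXi libraries minus the mean of the SCRM libraries. An event entered the fit when no library had fewer than 5 counts for it, the mean over libraries was at least 20 and each form had at least 4, and 39 of the 65 events did, of which 26 were skipped exon events, 12 were events of mutually exclusive exons and 1 was an alternative 3′ splice site. The 26 others fell short of at least 1 of these limits. In the fit over all genes, 2 of the 26 skipped exon events, of SYTL2 exon 13 and the CADPS exon, passed an adjusted p of 0.05 (limma) with a delta PSI of 0.1, where 0.0682% of 39615 events over all genes did. Without SCRM replicate 1, without SCRM replicate 2 or with a pseudocount of 0.1, 0 of the 26 passed. Of the 12 events of mutually exclusive exons, 0 passed in the limma fit, with 0.0% of 26176 over all genes, and 5 had an unadjusted p under 0.05, where 1.51% over all genes did. The quasi-binomial F test also called 0 of the 12. In 9 skipped exon events and 4 events of mutually exclusive exons the RBFOXi and SCRM libraries did not overlap and delta PSI reached 0.1, where 3.09% and 2.28% of the events over all genes met that rule. Nothing is read from these shares, since the genes were chosen on this contrast. The median delta PSI over all genes was -5.65e-05 for skipped exons and 0.010 for mutually exclusive exons.

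**Figure D1:**
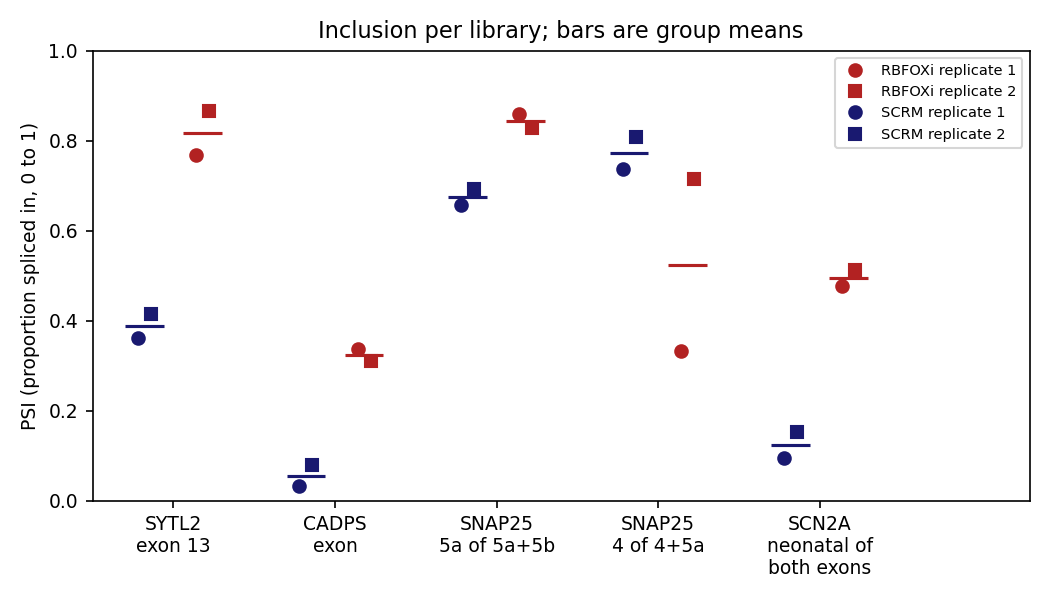
PSI (y axis, 0 to 1) of 5 events in each library. Circles are replicate 1 and squares replicate 2, red for RBFOXi and dark blue for SCRM, and bars are group means. The RBFOXi libraries lie above both SCRM libraries for SYTL2 exon 13, the CADPS exon, SNAP25 exon 5a against 5b and the SCN2A neonatal exon, and the event of SNAP25 exons 4 and 5a has RBFOXi libraries at 0.333 and 0.716.

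SYTL2 exon 13 had the largest delta PSI of the events of the 4 genes that entered the fit. Joined between exons 12 and 14, its PSI was 0.769 and 0.866 in the RBFOXi libraries and 0.361 and 0.416 in the SCRM libraries. Inclusion was thus the more common form in both RBFOXi libraries and the less common in both SCRM libraries. The means were 0.817 ± 0.0688 and 0.388 ± 0.0388 (SD, n = 2 each), a delta PSI of 0.429. The counts behind them were 727 with the exon and 98 without in RBFOXi replicate 1, 447 and 31 in replicate 2, 102 and 81 in SCRM replicate 1, and 227 and 143 in SCRM replicate 2.

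The same exon had a smaller difference when exon 12 was skipped as well. Joined between exons 10 and 14, its PSI was 0.674 and 0.714 with RBFOXi and 0.491 and 0.535 with SCRM, a delta PSI of 0.181. The groups did not overlap here either. The readouts are not independent, because reads within exon 13 and over its junction with exon 14 count in both, 411 and 278 in the RBFOXi libraries and 70 and 129 in the SCRM libraries. Solving the event counts for single junctions removes that overlap. Of the reads that left exon 12 for exon 13 or 14, 76.3% (316 of 13 against 98 of 14) and 84.5% (169 against 31) entered exon 13 with RBFOXi, and 28.3% (32 against 81) and 40.7% (98 against 143) with SCRM. These junction shares use no length correction, and their means differed by 45.9 percentage points. From exon 10, 44.9% and 61.5% entered exon 13 with RBFOXi, and 26.4% and 43.8% with SCRM, 18.1 points between the means. The lower RBFOXi library was 1.1 points above the higher SCRM library on the reads from exon 10, and 35.7 points above it on those from exon 12.

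**Figure D2:**
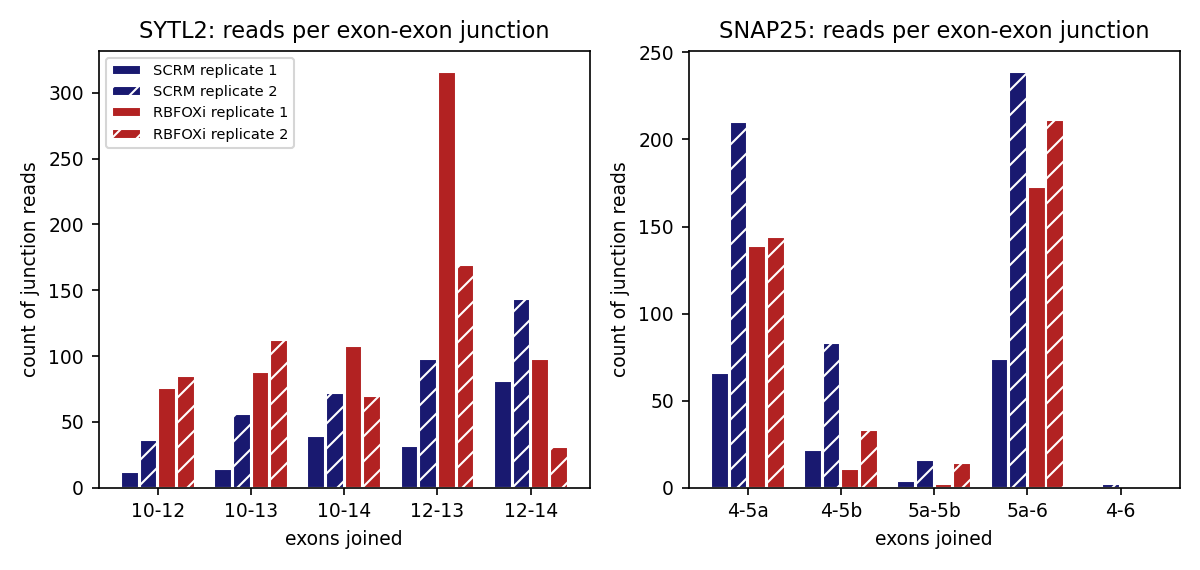
Counts of reads over single exon-exon junctions (y axis), solved from the event counts, for SYTL2 (left) and SNAP25 (right), with 1 bar per library. In SYTL2 the junction from exon 12 to 13 holds 316 and 169 reads with RBFOXi against 32 and 98 with SCRM, and in SNAP25 the junction from exon 4 to 5b holds 11 and 33 against 22 and 83. Counts are not scaled for library depth.

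The exons before it moved differently. SYTL2 exon 11, of 48 nt, had a PSI of 0.803 and 0.586 with RBFOXi and 0.905 and 0.862 with SCRM when joined between exons 10 and 12, a delta PSI of -0.19. A form of that exon extended to 244 nt is annotated in 1 transcript, without coding sequence there. Its readout was 0.310 and 0.129 against 0.463 and 0.406, a delta PSI of -0.22. Both readouts were lower in each RBFOXi library than in either SCRM library. They share their skipping reads, 76 and 85 with RBFOXi and 12 and 36 with SCRM. RBFOXi replicate 2 lay well below replicate 1 in both. The forms end at the same base, so reads from it into exon 12 count as inclusion in both. The second readout is therefore not of the extended form alone. The alternative 3′ splice site event sets the forms against each other, with overlapping groups. Counts of the extended and 48 nt forms were 29 and 116, then 10 and 47, with RBFOXi. With SCRM they were 2 and 46, then 22 and 83. Its PSI was 0.0005 to 0.0029, under effective lengths of 184 and 2.

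Exon 12, of 95 nt, had no single direction. Read with exon 14 as the next exon its PSI was 0.363 and 0.369 with RBFOXi and 0.457 and 0.468 with SCRM, a delta PSI of -0.10. Read with exon 13 as the next exon it was 0.612 and 0.445 against 0.526 and 0.458, and the groups overlapped. Read with exon 17 as the next exon it was 0.914 and 0.923 against 0.783 and 0.833, from 2, 2, 1 and 2 skipping reads. Reads that skipped exon 11 split by the exon they entered. From exon 10, 76 and 85 reads entered exon 12, 88 and 112 entered exon 13 and 108 and 70 entered exon 14 with RBFOXi, while with SCRM 12 and 36, 14 and 56, and 39 and 72 did. Exon 14 was thus entered most often in both SCRM libraries and in RBFOXi replicate 1, and exon 13 in RBFOXi replicate 2. The event of mutually exclusive exons 12 and 14 had PSI values of 0.0625 and 0.097 against 0.0323 and 0.0501, all below 0.1. The other 4 SYTL2 events in the fit, the alternative 3′ splice site event of exon 11 among them, had overlapping groups and delta PSI values between -0.0033 and 0.0099. The intron after exon 12 begins with GC in place of the usual GT, shown in capitals after the last 10 bases of the exon (chr11:85425446-85425465, minus strand). Of the skipped exons tested over all genes, 0.659% follow an intron that begins with GC.
SYTL2 exon 12 donor: ccaagatgagGCaagtttgt

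The CADPS exon was rare with SCRM and far more common with RBFOXi. Its PSI was 0.338 and 0.310 in the RBFOXi libraries and 0.0327 and 0.0784 in the SCRM libraries. The means were 0.324 ± 0.0199 and 0.0556 ± 0.0323 (SD, n = 2 each), a delta PSI of 0.268. Counts with and without the exon were 148 and 108, then 100 and 83, with RBFOXi, and 7 and 77, then 24 and 105, with SCRM. The length correction bears on the size here, since the form with the exon offers 231 positions for a read and the form without it 86, and the plain share of counts differed by 0.428.

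The rest of CADPS differed little. Its other 6 skipped exon events in the fit included 5 with a delta PSI between -0.026 and 0.022, at PSI values near 0 or near 1. The sixth, an exon of 15 nt, had 2, 3, 2 and 0 reads with the exon in the 4 libraries, PSI values of 0.193 and 0.395 against 0.266 and 0, and overlapping groups. Its 2 events of mutually exclusive exons had delta PSI values of 0.018 and 0.001, and the groups overlapped in both. CADPS therefore had 1 event with a delta PSI of 0.1 and separate groups among the 9 in the fit.

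SNAP25 exon 5a took a larger share of the 5a and 5b pair with RBFOXi. Joined between exons 4 and 6, exon 5a had a PSI of 0.859 and 0.829 in the RBFOXi libraries and 0.657 and 0.693 in the SCRM libraries. It was the main form in every library, and the groups did not overlap. The means were 0.844 ± 0.021 and 0.675 ± 0.0254 (SD, n = 2 each), a delta PSI of 0.169. Counts of 5a and 5b were 372 and 61, then 384 and 79, with RBFOXi, and 161 and 84, then 499 and 221, with SCRM. Joined to exon 3 in place of exon 4, the same pair had 0.830 and 0.841 against 0.608 and 0.677, a delta PSI of 0.193. Reads from exon 3 into 5a were only 11 and 3 with RBFOXi and 1 and 4 with SCRM. Into 5b they were 0 and 0, and 0 and 2. All other reads of this event count in the exon 4 event too, so it is not a separate readout.

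The skipped exon readouts of the pair depended on what counted as skipping. Where the skipping reads were those of the partner exon, the difference was of the same kind as in the pair. Exon 5a between exons 4 and 5b had a PSI of 0.840 and 0.620 with RBFOXi and 0.543 and 0.489 with SCRM, and exon 5b between 5a and 6 had 0.120 and 0.114 against 0.288 and 0.226. Their delta PSI values were 0.214 and -0.14, and both pairs of groups were apart. Where skipping meant that both exons were left out, almost no read supported it. The junction from exon 4 to exon 6 held 0 reads in each RBFOXi library and 0 and 2 in the SCRM libraries, so 5a and 5b each had a PSI of 1.00 in 3 libraries in the skipped exon events built on it. Neither event had enough skipping reads for the fit. From exon 3, exon 5a against skipping of both had a delta PSI of -0.0048, and exon 5b -0.15 with overlapping groups.

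Single junctions also kept the groups apart. Of the reads from exon 4 into 5a or 5b, 92.7% (139 of 150) and 81.4% (144 of 177) entered 5a with RBFOXi, and 75.0% (66 of 88) and 71.7% (210 of 293) with SCRM, 13.7 percentage points between the means. Few reads joined the exons to each other. Of the reads that left 5a for 5b or 6, 1.14% and 6.22% entered 5b with RBFOXi and 5.13% and 6.27% with SCRM, with 2, 14, 4 and 16 such reads.

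The largest delta PSI among the SNAP25 events was not that of the pair but of exon 4 against exon 5a, both joined between exons 3 and 5b, at -0.25. Its PSI was 0.333 and 0.716 with RBFOXi and 0.737 and 0.808 with SCRM, and the RBFOXi libraries were further apart from each other than the group means were. Without RBFOXi replicate 1, delta PSI was -0.057. Most of the counts of its 5a form lay inside exon 5a, 60 of 73 and 29 of 46 with RBFOXi and 21 of 26 and 50 of 70 with SCRM. Such reads also come from transcripts in which exon 4 precedes 5a. With exon 6 in place of 5b as the next exon, the same pair had a delta PSI of -0.028 and overlapping groups. The other events of SNAP25 exons 4, 6 and 7 in the fit had delta PSI values between -0.036 and 0.032.

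SCN2A used the neonatal exon about as often as the adult exon with RBFOXi and less often with SCRM. In the event of the mutually exclusive pair, the neonatal exon had a PSI of 0.477 and 0.513 in the RBFOXi libraries and 0.0952 and 0.153 in the SCRM libraries. The means were 0.495 ± 0.0256 and 0.124 ± 0.041 (SD, n = 2 each), a delta PSI of 0.371. The counts were low. Neonatal and adult reads were 21 and 23, then 19 and 18, with RBFOXi, and 6 and 57, then 21 and 116, with SCRM. The neonatal counts alone overlapped between the conditions, and the adult counts were lower in each RBFOXi library than in either SCRM library.

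The skipped exon readout of the adult exon differed by less. Its PSI was 0.853 and 0.695 with RBFOXi and 0.967 in both SCRM libraries, a delta PSI of -0.19. Its skipping reads were 2 and 4 with RBFOXi and 1 and 2 with SCRM, all of them joining the exons on either side of the pair and so leaving out both. Transcripts with the neonatal exon are counted as neither form in this readout. The neonatal exon, read in the same way against the same 2, 4, 1 and 2 reads, had 0.842 and 0.706 against 0.752 and 0.842, a delta PSI of -0.023, and was left out of the fit because its mean count was under 20. The other SCN2A events, of exons 15 and 20, held at most 2 skipping reads in a library and were left out as well. The event of the pair, in which 1 exon is weighed against the other, was the only 1 of the 3 readouts to set the forms against each other.

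**Figure D3:**
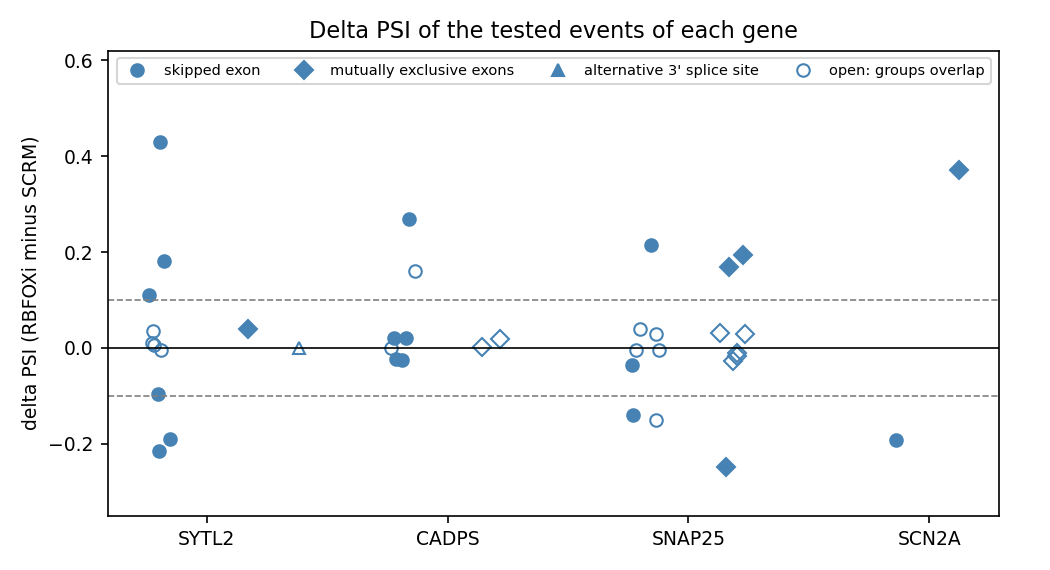
Delta PSI (y axis, RBFOXi minus SCRM) of the 39 events in the fit, by gene. Circles are skipped exon events, diamonds mutually exclusive exons and the triangle an alternative 3′ splice site, filled where the libraries of the groups do not overlap and open where they do, and dashed lines mark 0.1 in either direction. Most events lie between the dashed lines, and SYTL2, SNAP25 and SCN2A hold events past them in both directions.

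UGCAUG was searched on the strand of the gene in the 300 nt of intron next to each exon or pair, spelled TGCATG in the genome. It lay there beside the CADPS exon and the SCN2A pair, and not beside SYTL2 exon 13 or the SNAP25 pair. SYTL2 exon 12, whose readouts had no single direction, had 2 copies in the 300 nt before it. The nearest of these began 141 nt before that exon. In CADPS, 2 copies lay in the last 300 nt before the exon, and 8.41% of the skipped exons tested over all genes hold at least 1 copy there. The exon itself holds 1 copy, where 4.05% of tested skipped exons of 140 to 180 nt hold at least 1. Other CADPS exons also had a copy in the 300 nt before them, such as 1 of 69 nt with a delta PSI of -0.026. In SCN2A the nearest copy began 217 nt after the adult exon, at chr2:166166160-166166185 with 10 nt on either side, and 2 more began 392 and 778 nt after it. Among tested mutually exclusive pairs over all genes, 8.28% hold a copy in the first 300 nt after the second exon. No copy lay in the intron of 370 nt before the SCN2A pair or in the intron between its exons.
SCN2A copy after the adult exon: taacaagtgtTGCATGaggcatttgc

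In SYTL2 the nearest copies to exon 13 began 919 nt before it and 566 nt after it. In SNAP25 they began 1099 nt before exon 5a and 666 nt after exon 5b, with none between the exons. Whole introns hold a copy often, 54.4% of those before and 53.0% of those after a tested skipped exon. A match is a description of these letters and not a site of binding.

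Counts summed over the distinct skipped exons of a gene gave its level in each library, as CPM. Here CPM are counts divided by a library size from median-ratio scaling, and not by the library's own total. SCN2A was lower with RBFOXi, at 0.942 and 0.871 against 2.23 and 2.66 CPM. Its log2 fold change was -1.43 ± 0.55 (SE, limma voom). SYTL2 was at 93.1 and 51.7 with RBFOXi against 43.8 and 48.0, a log2 fold change of 0.59 ± 0.46. It was 0.16 without RBFOXi replicate 1, which held the highest value. CADPS was at 24.1 and 12.8 against 17.99 and 13.6 (0.17 ± 0.52), and SNAP25 at 20.02 and 18.7 against 16.5 and 25.2 (-0.09 ± 0.46), with overlapping groups in both. None of the 4 genes passed an adjusted p of 0.05 in the limma fit, where each had an adjusted p of 1.00, and 0.0% of 11147 genes did. At an unadjusted p of 0.05, 9 genes did (0.0807%), SCN2A among them at 0.0408 (limma voom), with 0.0928 when scaled by library totals. Fewer cells with a transcript and less RNA per cell cannot be told apart in these bulk samples.

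**Figure D4:**
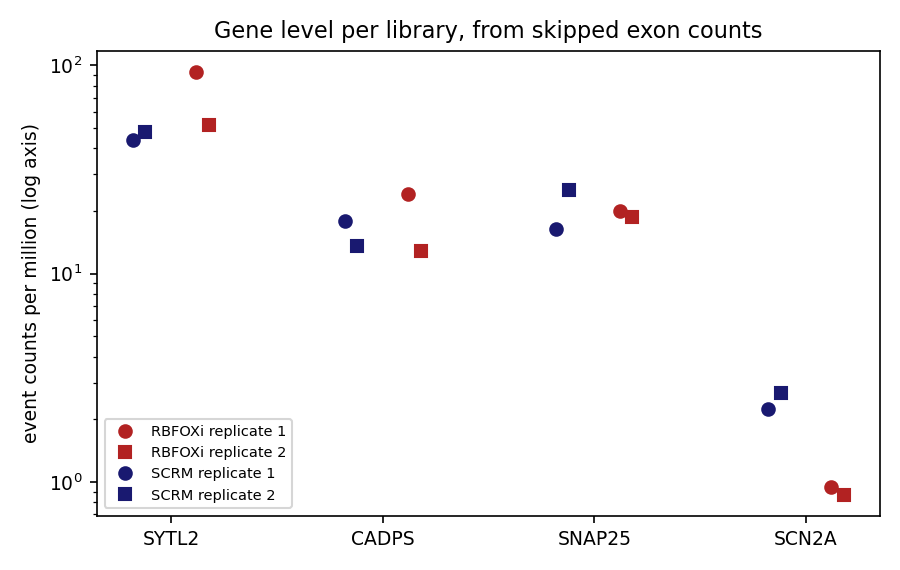
Level in CPM (y axis, log scale) of the 4 genes in each library, from the counts of distinct skipped exons. Library sizes came from median-ratio scaling and not from library totals. Circles are replicate 1 and squares replicate 2, red for RBFOXi and dark blue for SCRM. SCN2A libraries with RBFOXi lie at 0.942 and 0.871, below 2.23 and 2.66 with SCRM, and values are comparable within a gene only, since they are not per length.

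The other genes of these pathways were taken as 4 lists of 93 genes in all, without the 4 genes above. The lists cover RAB27 and synaptotagmin-like tethers, vesicle priming and active zone proteins, SNARE proteins with their partners, and sodium channels. Of their 176 skipped exon events in the fit, from 43 genes, 0 passed in either direction, and 10 had an unadjusted p under 0.05 (5.68%, against 3.61% over all genes). The median delta PSI of these events was -0.00126. In 4 of them the groups were apart with a delta PSI of 0.1, 3 higher and 1 lower (2.27%, against 3.09% over all genes). Of their 120 events of mutually exclusive exons, 0 passed, 2 had an unadjusted p under 0.05 (1.67%, against 1.51%) and 5 were apart by 0.1 (4.17%, against 2.28%). Neither share is read as particular to the lists.

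The 4 skipped exons apart by 0.1 lay in EXOC1, CADPS2, STX2 and EXOC3. An exon of 45 nt in EXOC1, a subunit of the exocyst that tethers vesicles, had a PSI of 0.232 and 0.461 with RBFOXi and 0.0976 and 0.110 with SCRM. An exon of 126 nt in EXOC3, another exocyst subunit, had 0.723 and 0.721 against 0.600 and 0.593. STX2, a syntaxin of the plasma membrane, had 0.459 and 0.527 against 0.313 and 0.315 for an exon of 126 nt. An exon of 21 nt in CADPS2, the paralogue of CADPS, was the exception in direction, with 0.268 and 0.327 against 0.626 and 0.406. None of the 4 passed the adjusted p of the limma fit, at 0.613 for EXOC1 and 1.00 for the others. ERC1, a scaffold of the active zone, followed with 0.0694 and 0.136 against 0 and 0.0241 for an exon of 12 nt. In SYTL3, PPFIA4, TXLNA, PPFIA3, EXOC6B, RIMS3 and NALCN, the next genes by size, delta PSI lay between -0.059 and 0.046.

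Over the 4 libraries, the events most like the leading event of each gene were named by the root mean square difference of PSI, with 1 event per gene. For SYTL2 exon 13 these lay in RFFL (0.082), DCAF17 (0.098) and DNM2 (0.099), among 9324 genes. For the CADPS exon they lay in ZNF107 (0.037), C14orf37 (0.053) and DEPDC1 (0.054). For the SCN2A pair they lay in RIBC1 (0.069), DNHD1 (0.081) and DNAH5 (0.082), among 6684 genes, and for the event of SNAP25 exons 4 and 5a in RAB1A (0.093), TTBK2 (0.093) and LOC654841 (0.097). The likeness includes the difference between conditions that chose the 4 genes.

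Summed counts over skipped exon events were between 114415530 and 136097319 per library, with a median of 285 to 580 per tested event. SCRM replicate 1 had the lowest of both. Without SCRM replicate 2, which leaves SCRM replicate 1 alone against RBFOXi, the gene level fit called 3771 of 11047 genes, and 0 or 1 without any other library. The glioblastoma markers VIM, CD44, FN1, TNC and NES had events, with a summed level of 20893 to 26179 CPM, while CHI3L1 and GFAP had no event in the tables. The sum hides differences in SCRM replicate 1, where VIM was at 7953 CPM against 3011 to 4956 in the other libraries. TNC was at 1523 there against 3499 to 4620. FN1 and NES in that library lay within the range of the others, and CD44 just below it. Of 9 neuronal markers, SYP, TUBB3, MAP2, GAD1 and SLC17A7 had events. SLC17A7, at 0 to 2 counts, was left out of the gene level fit, and the others had 71.0 to 85.4 CPM in sum. Most of that was TUBB3, at 60.0 and 63.8 with RBFOXi and 67.5 and 54.2 with SCRM, while SYP was at 0.22 to 0.40. RBFOX3, STMN2, NEFL and NEFM had no event. The neuronal list summed to 84.0 and 78.6 with RBFOXi and to 85.4 and 71.0 with SCRM, and its part in the results was not tested.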

How the data were processed

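RNA-seq of U87MG cells was analysed from 5 deposited tables of splicing events. Per the labels and methods, the authors used STAR 2.4.2a and the hg19 build for alignment, and rMATS to count reads of each event. The deposited read counts of the inclusion and skipping forms, comma-joined per library and not normalized, and the effective lengths of the forms were used. The deposited inclusion levels and the authors' p-values, FDR and inclusion level differences were not used.

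log2 odds of inclusion (pseudocount 0.5) were fitted per event type with limma 3.58.1 in R 4.3.3 and adjusted by Benjamini-Hochberg. Reads are not independent molecules, so no counting intervals are given. The fit was tested on simulated counts of 39615 skipped exon events. It recovered 80.5% of 200 events shifted by 2 on the log2 odds scale and called 4 unchanged events, and the quasi-binomial F test recovered 16.5% and called 0. The shifted events were drawn only from those with intermediate inclusion and high counts, and all events had the same excess spread between libraries. Recovery was therefore not measured for events with low counts or for mutually exclusive exons. On the deposited counts the order was reversed, with 27 skipped exon events called by limma and 56 by the quasi-binomial F test. The simulated recovery therefore does not rank the tests on these data. Gene levels summed counts of distinct skipped exons for genes with 10 counts in 2 libraries and were fitted with limma voom after median-ratio scaling. This took the place of a negative binomial count model, because the joined columns were not accepted as a count table, and such a model was not run as a second fit either.

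Single junction counts came from solving the equations of all events of a gene (sympy 1.14.0), with 0 contradictions among 8, 8, 29 and 3 redundant equations for SYTL2, CADPS, SNAP25 and SCN2A. The same solution shows that the first form of a mutually exclusive event is the exon first in the transcript. Sequences were read from GRCh37, where the introns of 98.1% of tested skipped exon events were GT-AG, and exons were numbered by the GENCODE canonical transcripts. Protein sequences were not used here. The sequences of the CADPS exon and the SCN2A pair are not reported here.

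Members and lists were chosen with earlier results of these data known. The leading event of a gene was the event in the fit with the largest absolute delta PSI and separate groups. The 12 pathway genes named were those of the lists with the largest absolute delta PSI in a skipped exon event with separate groups and a mean count of 50, and the 3 most alike genes were named per leading event. The SNAP25 event of exons 5a and 5b was added after its values were seen. Alternatives covered the test, pseudocount, filters, delta PSI minimum, definition of PSI, scaling, intron window, replicate block and each library left out.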

Additional observations from a re-analysis of the deposited data

How the results depend on the processing

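The count of skipped exon events called, 27, became 1 with a pseudocount of 0.1, 44 with a filter of 1 count in every library, 56 with a quasi-binomial F test and 119 with the replicate number as a block, and 1 to 69 with a library left out. Of these, 2, 0, 2, 2 and 4 events belonged to the 4 genes in the same order, and 0 to 2 with a library left out, with 0 without SCRM replicate 1 and 0 without SCRM replicate 2. The mutually exclusive exon events called went from 0 to 2 with a pseudocount of 1, to 77 under the block, of which 3 were events of the 4 genes (the SCN2A pair and the SNAP25 pair of exons 5a and 5b joined to exon 4 or 3), and to 4 to 1400 with a library left out, of which 0 to 3 belonged to the 4 genes, and 1400 and 3 were without SCRM replicate 2. Without a library, alternative 3′ splice site calls were 0 to 12 and alternative 5′ splice site calls 0 to 5, with 1 of the latter by the quasi-binomial test. The same replicate number in both conditions had deviations correlated at 0.094 (skipped exons) and 0.088 (mutually exclusive exons) over 2 pairs, and the labels do not say what the numbers share. The sample titles of replicate 1 have the same ending in both conditions and those of replicate 2 another, and what the endings mean is not given in the labels.

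Delta PSI kept its direction for the 5 events under all alternatives. As a plain share it was 0.323 for SYTL2 exon 13 and 0.428 for CADPS. With other flanking exons it was 0.181 for SYTL2, -0.028 for SNAP25 exons 4 and 5a and 0.193 for 5a and 5b, the last from nearly all the same reads. With a library left out it was 0.381 to 0.478 for SYTL2, 0.245 to 0.291 for CADPS, 0.342 to 0.400 for SCN2A, 0.151 to 0.187 for SNAP25 5a and 5b and -0.44 to -0.057 for exons 4 and 5a, where it was -0.057 without RBFOXi replicate 1. UGCAUG lay beside 1 of the 4 exons or pairs within 200 nt, 2 within 300 nt and 4 in the whole intron. The log2 gene level of SNAP25 changed sign to 0.11 with library totals, chosen after seeing the data, which moved the median of all genes by 0.19, and to 0.030 with exons of PSI of at least 0.9. With a library left out it was -0.34 to 0.23 for SNAP25, -0.29 to 0.64 for CADPS, 0.16 to 1.03 for SYTL2 and -1.51 to -1.30 for SCN2A. Under the block SCN2A had -1.43 at an unadjusted p of 0.0614 (limma voom), against 0.0408 without it. The planned DESeq2 alternative was not run. The causes were not tested.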
